A study of Mus musculus with 3 samples.

Results

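Conventional type 1 dendritic cells (cDC1) of the irradiated mouse lung were examined one cell at a time. A cell was taken as cDC1 if Xcr1 or Clec9a, receptors that mark cDC1, and H2-Ab1, an MHC class II chain, were above 0. It also had to show fewer than 2 of the genes of mature dendritic cells Fscn1, Ccl22, Ccr7 and Il12b, and none of Cd209a, C1qa, Chil3, Cd3e, Cd79a, Ncr1 and Epcam, which mark other cells. This rule found 217 cDC1 among 19622 cells. The cells were thus chosen by their measured values of these genes. CONV held 40 of them among 6372 cells, CONV AsiDNA 104 among 6983 and FLASH 73 among 6267. Where 3 values follow each other below, they stand in this order of the libraries.

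The libraries came from whole lungs of female C57BL/6J mice, dissociated with dispase and elastase and not sorted, 5 months after a single dose of 13 Gy to the thorax. The CONV mouse had received this dose at a conventional dose rate and the FLASH mouse at the ultra-high dose rate of FLASH. The CONV AsiDNA mouse had received AsiDNA, an oligonucleotide that mimics a broken DNA end, into the peritoneum at 100 mg/kg on both preceding days and at 200 mg/kg on the day of conventional irradiation. All 3 mice were thus irradiated, and unirradiated lungs were not analysed here. Each condition was 1 mouse and 1 library of 10x Genomics 3′ chemistry, so that condition, mouse and library cannot be told apart, and no p-value was computed between conditions.

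Dendritic cells take up antigen, carry it to the lymph node and present it to T cells. The cDC1 branch depends on the transcription factors Irf8 and Batf3, takes up dead cells through receptors such as Clec9a, and is known for presenting the antigen of such cells on MHC class I to CD8+ T cells. The cDC2 branch depends more on Irf4 and mainly serves CD4+ T cells, and both branches can turn into mature cells that express Ccr7 and migrate. In the lung, many cDC1 carry the integrin chain Itgae (CD103) and the lectin Cd207.

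Deposited values were on a natural log scale, as ln(1 + a whole number), and that whole number is the adjusted count of a gene in a cell. A cDC1 had a median of 4807, 4521 and 4385 adjusted counts in the 3 libraries, with 1487, 1465 and 1372 genes above 0. Depth had been adjusted and background removed at least in part before deposition, so a gene at 0 is described as listed at 0. Levels are adjusted counts per 1000000 adjusted counts of all cDC1 of a library added together (adjusted CPM). Between 9 and 17 cell barcodes were shared by a pair of libraries, and no barcode was shared among cDC1.

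In CONV, 0.628% of all cells were cDC1 (exact 95% interval 0.449 to 0.854). The share was 1.49% with AsiDNA (1.22 to 1.80) and 1.16% after FLASH (0.914 to 1.46). The CONV interval lay below both others, which overlapped. The separation from FLASH depended on the gate. With both Xcr1 and Clec9a required, CONV was at 0.534% (0.370 to 0.745) and FLASH at 0.878% (0.662 to 1.14). Without cells with Siglech or Ccr9, described below, they were at 0.502% (0.344 to 0.708) and 0.926% (0.704 to 1.20), and for dividing cDC1 alone at 0.298% (0.180 to 0.465) and 0.431% (0.284 to 0.626). In these 3 the CONV and FLASH intervals overlapped, while CONV AsiDNA stayed above CONV, with lower bounds of 0.973%, 1.09% and 0.520%. In other versions they stayed apart. Without dividing cDC1 they ran from 0.204% to 0.503% and from 0.538% to 0.978%. With no exclusion of other lineages they ran from 0.6645% to 1.14% and from 1.765% to 2.49%. These intervals, and all others given for shares, cover the sampling of cells within a mouse and not the spread between mice. The cDC2 share, from a gate on Cd209a, had the same order, with 0.549%, 2.15% and 1.55% in CONV, CONV AsiDNA and FLASH. The cells gated as mature dendritic cells were fewer, at 16, 30 and 16. Among the cells of these 3 gates cDC1 were 44.0%, 36.6% and 39.2%, so the low share of CONV was found in cDC2 as well. A share of all cells depends also on the numbers of every other cell type in the suspension.

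In CONV AsiDNA and FLASH the share turned on 1 gene of the rule more than on the others. Epcam, an adhesion molecule of epithelium, was the sole reason for turning away 2 cells in CONV and 40 in each of the other libraries. Every one of these cells had at least 2 of the cDC1 genes Naaa, Flt3, Irf8, Wdfy4 and Cadm1 above 0, and genes of epithelium other than Epcam were above 0 in 0, 0 and 2 of them. With these cells included, in an alternative chosen after the data were seen, the cDC1 shares became 0.659%, 2.06% and 1.80%. Cells with Epcam then made up 4.76% of cDC1 (0.582 to 16.2) in CONV. With AsiDNA they made up 27.8% (20.6 to 35.9), and after FLASH 35.4% (26.6 to 45.0).

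**Figure D1:**
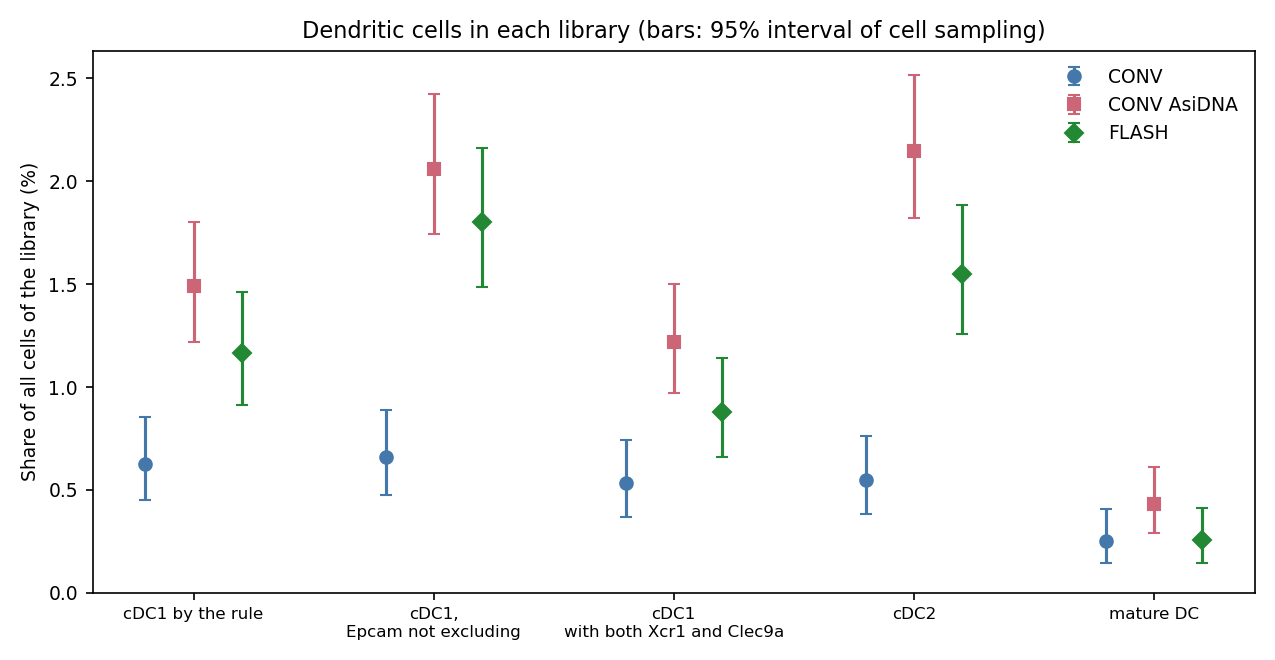
Share of all cells of each library, in percent, that fell in the cDC1 gate, in 2 other versions of it, and in the cDC2 and mature dendritic cell gates. Points are libraries and bars are exact 95% intervals of cell sampling. CONV lay lowest for cDC1 at 0.628%, and leaving Epcam out of the rule moved CONV AsiDNA to 2.06% and FLASH to 1.80%.

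At the edge of the rule, 3, 21 and 16 cDC1 had 1 of the 4 genes of mature dendritic cells, and 3, 4 and 1 cells were outside by exactly 2 of them. A single gene of another cell type kept 15, 55 and 53 cells outside. The gene alone in question was Chil3, of alveolar macrophages, for 9, 6 and 3 cells and Cd209a for 3, 9 and 10 cells.

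The genes that chose the cells were found together in most of them. Xcr1, which spans 123852315 to 123862029 of chromosome 9 (GRCm38, minus strand), encodes the receptor for the T cell chemokine Xcl1. Clec9a, which spans 129408862 to 129424763 of chromosome 6 (plus strand), encodes a receptor for the actin of dead cells. Both were above 0 in 34 of 40, 85 of 104 and 55 of 73 cDC1. Xcr1 alone was seen in 1, 8 and 7 cells and Clec9a alone in 5, 11 and 11. H2-Ab1 had a median of 54.5, 51 and 49 adjusted counts per cell. As the rule used these genes, their values are a description.

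Naaa, a lysosomal amidase, and Flt3, the receptor of the growth factor that dendritic cells need, were not part of the rule. Naaa was above 0 in 39, 97 and 61 cDC1. Flt3 was above 0 in 35, 64 and 53 of them. At least 2 of these and of Irf8, Wdfy4 and Cadm1 were found in 40 of 40, 101 of 104 and 69 of 73 cDC1. Clustering of all cells, made without the rule, put 107 of the 217 in a cluster of 198 cells led by Cd207 and Xcr1. A further 91 fell in a cluster of 279 cells led by the cell cycle genes Pclaf, Nusap1 and Top2a, which also held 27 cDC2. Of the others, 15 fell in a cluster led by Cd209a, and with finer clustering 13 cDC1 fell in a cluster led by Siglech, Klk1 and Ccr9. Siglech or Ccr9, genes of plasmacytoid dendritic cells, were above 0 in 8, 10 and 15 cDC1, and some values are given without them.

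**Figure D2:**
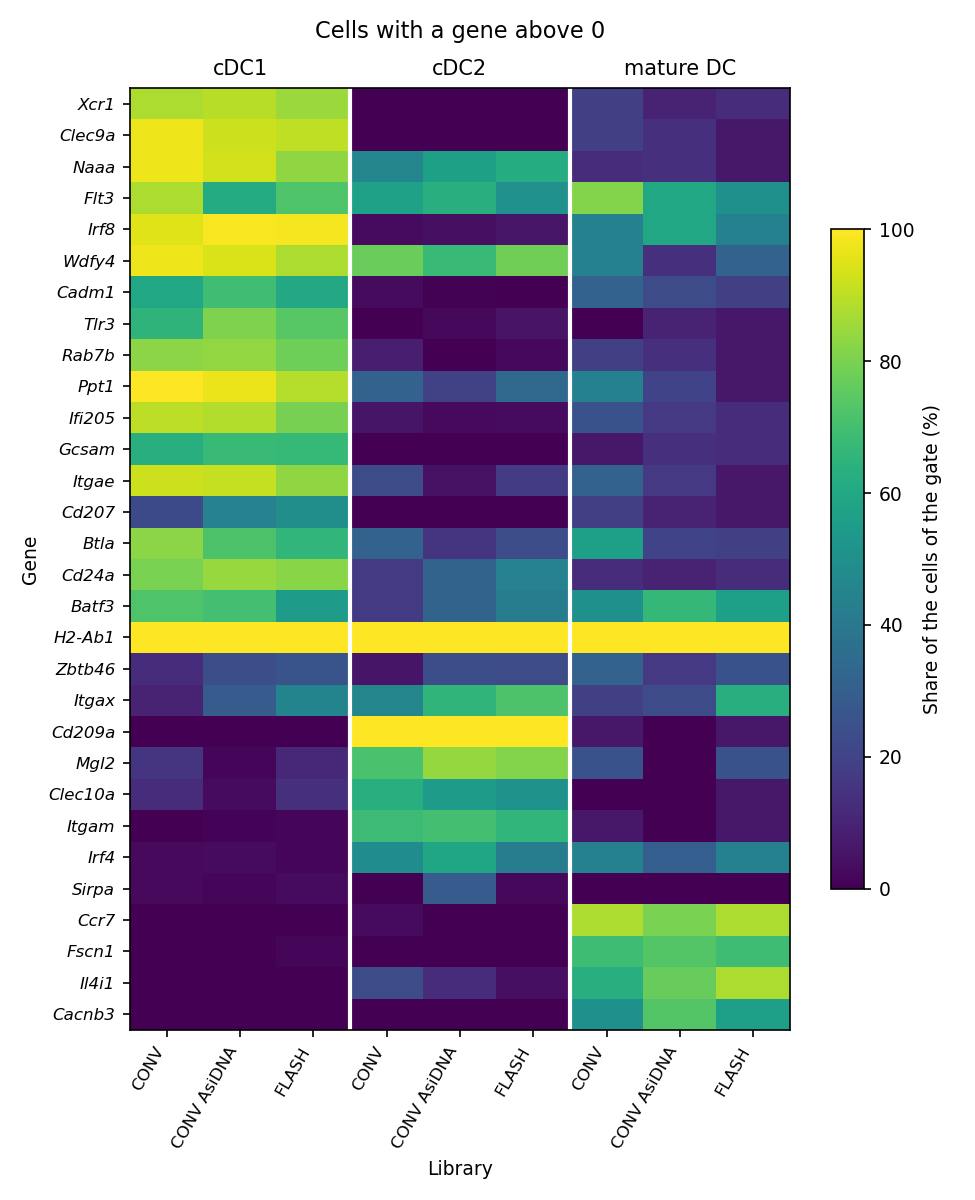
Share of cells above 0, in percent by colour, for genes of cDC1 (top), cDC2 and mature dendritic cells (bottom) in each gate and library. Xcr1, Clec9a, H2-Ab1, Cd209a, Ccr7 and Fscn1 were used by the gates. Tlr3 was above 0 in 65.0%, 80.8% and 74.0% of cDC1 of CONV, CONV AsiDNA and FLASH, and in at most 5.16% of cDC2.

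What cDC1 share beyond the rule was measured against cDC2 of the same mice. The 3 mice served as replicates for this contrast, whatever their treatment, and the cells of each gate were added up per library. limma was run on log2(adjusted CPM + 10) with the library as a block, and a gene was called at an adjusted p under 0.05. Of 2308 genes, which left out the genes of either gate, 393 were higher in cDC1 (17.0% of those tested) and 401 were lower (17.4%). Without the CONV AsiDNA library 198 were higher and 236 lower, and without dividing cells 191 and 263. The test covers genes that the gates did not use, in cells that the gates chose. Dividing cells, described below, were more frequent among cDC1, and values without them are given for some genes.

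Of 22 genes of cDC1 identity tested against cDC2, 19 were higher in cDC1, 1 was lower and 2 were not called. Over all genes tested, 17.0% were higher and 17.4% lower. With dividing cells left out of both gates 17 were higher and 1 lower, beside 191 and 263 of 2178 genes. The identity list was made from general knowledge of cDC1, but with earlier results of these data known, so this count is a description. Irf8, the transcription factor on which the branch depends, was at 1513, 2082 and 2623 adjusted CPM in CONV, CONV AsiDNA and FLASH. In cDC2 it was at 66.1, 117 and 232, which gave a log2 difference of 3.94 with an SE of 0.19 (limma adjusted p = 0.000199). No cDC1 sum overlapped a cDC2 sum for Irf8. Batf3, its partner, was at 243, 225 and 192 in cDC1 and at 46.3, 96.3 and 145 in cDC2, a smaller log2 difference of 1.23 with an SE of 0.34 (limma adjusted p = 0.0357). Without dividing cells the difference of Batf3 was 1.07 and was not called (limma adjusted p = 0.0946).

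Tlr3, a receptor for double-stranded RNA, spans 45395665 to 45411080 of chromosome 8 (GRCm38, minus strand). With 10 added to all levels it was the gene farthest higher in cDC1. It was at 295, 485 and 534 adjusted CPM in cDC1 of CONV, CONV AsiDNA and FLASH. In cDC2 it was listed at 0 in CONV and was at 4.66 and 12.1 in the other libraries. The log2 difference was 4.88 with an SE of 0.21 (limma adjusted p = 0.000134), and it is understated because 10 was added to low levels. Over the alternatives run, the highest log2 difference was 6.66 for Tlr3, 7.80 for Cd207 and 7.76 for Gcsam. Cadm1, an adhesion molecule of cDC1, was at 301, 338 and 219 in cDC1 and at 6.61, 1.55 and 0 in cDC2. Rab7b, a GTPase of late endosomes, was at 369, 491 and 513 against 19.8, 0 and 7.24. Each cDC1 sum of these genes was above every cDC2 sum.

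Ppt1, a lysosomal thioesterase, was among the most even of the cDC1 genes, at 1618, 1425 and 1634 adjusted CPM. cDC2 had 86.0, 46.6 and 99.0, and the log2 difference was 4.22 with an SE of 0.18 (limma adjusted p = 0.000134). Txndc16 was at 786, 551 and 445 against 46.3, 1.55 and 4.83, and Ifi205, an interferon-inducible gene, at 733, 742 and 627 against 46.3, 14.0 and 12.1. Gcsam, Cd207 and Gpr141b completed the 10 genes farthest higher. Gcsam was at 174, 247 and 235 in cDC1 and was listed at 0 in cDC2 of all libraries. Gpr141b was at 258, 155 and 219, and it was above 0 in cDC2 of FLASH only. All 10 passed the test in every alternative that tested them.

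Cd207, which encodes langerin, was also listed at 0 in cDC2 of all libraries. Within cDC1 it was uneven, with 79.1 adjusted CPM in CONV against 302 with AsiDNA and 454 after FLASH. Itgae, the CD103 chain, was at 717, 549 and 559 in cDC1 and at 99.2, 15.5 and 65.2 in cDC2. Its log2 difference was 3.37 with an SE of 0.35 (limma adjusted p = 0.0018). The exceptions of the identity list were Itgax, Flt3 and Id2. Itgax (CD11c), a gene of all dendritic cells, was lower in cDC1, at 42.2, 111 and 127 against 238, 326 and 396. Flt3 was not called (limma adjusted p = 0.0750), nor was Id2, a regulator needed for cDC1 (adjusted p = 0.111).

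The genes farthest lower in cDC1 included genes of cDC2 and of monocyte-derived cells. Mgl2, a lectin of cDC2, was at 94.9, 59.5 and 71.1 adjusted CPM in cDC1 and at 3980, 3820 and 3554 in cDC2. The log2 difference was -5.50 with an SE of 0.14 (limma adjusted p = 5.2e-05). S100a4, a calcium-binding protein, was at 26.4, 17.0 and 71.1 against 3894, 2740 and 2439. Itgam (CD11b) was at 0, 2.13 and 3.09 in cDC1 against 436, 370 and 406 in cDC2. In these genes the gates were far apart in every library. Wfdc17, Tmem176a, Tmem176b, the chemokines Ccl2 and Ccl9, the chemokine receptor Ccr1 and the metallothionein Mt1 completed the list of 10. Of 13 cDC2 genes tested, 8 were lower in cDC1, beside 17.4% of all genes tested, and none was higher. Irf4 was among the lower ones, at 10.5, 12.8 and 3.09 against 265, 270 and 225.

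**Figure D3:**
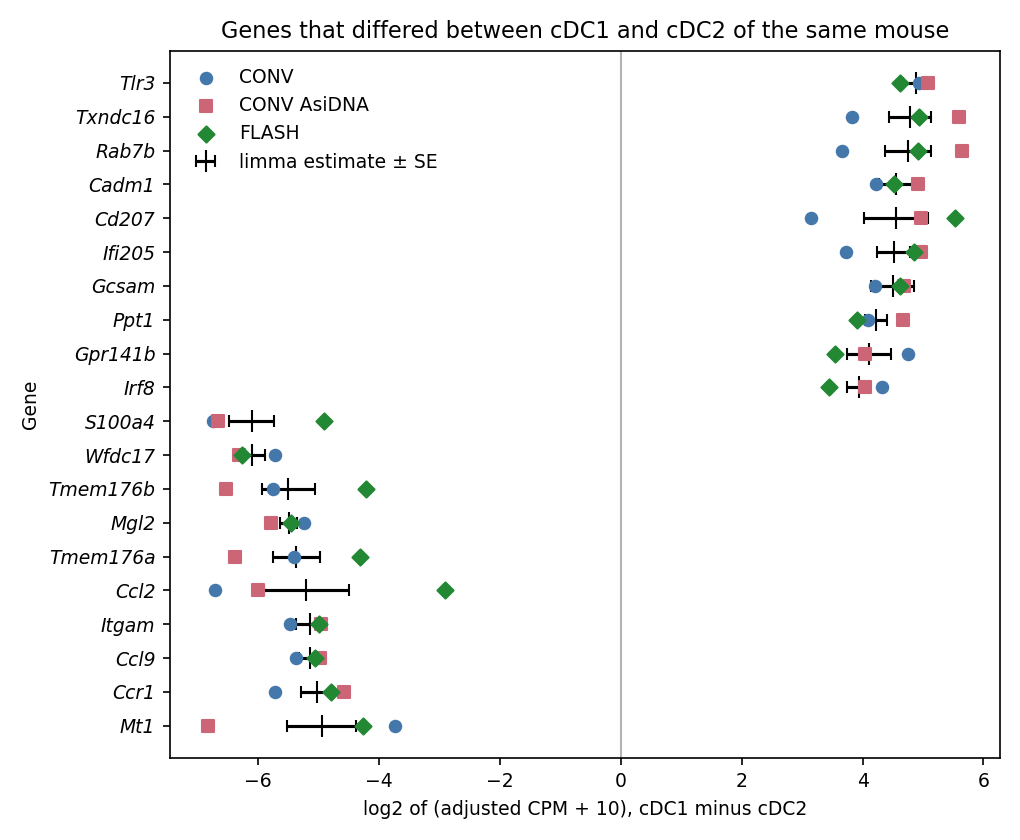
Log2 difference between cDC1 and cDC2 in each library (coloured points) and the limma estimate with its SE (black) for the 10 called genes farthest in each direction, on the scale of log2(adjusted CPM + 10). The 3 libraries lay on the same side for all 20 genes, from Tlr3 at 4.88 to S100a4 at -6.11.

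Genes of the MHC class I pathway, which makes peptides and loads them for CD8+ T cells, moved in both directions. Of 16 tested, 7 were higher in cDC1 and 4 lower, beside 17.0% and 17.4% of all genes tested. The higher genes included 2 of the 3 immunoproteasome subunits tested and the peptide transporter. Psmb9, a subunit of the immunoproteasome, was at 606, 644 and 621 adjusted CPM in cDC1 and at 172, 121 and 162 in cDC2, a log2 difference of 1.99 with an SE of 0.16 (limma adjusted p = 0.000883). Psmb10, another subunit, was not called, at 0.29 (limma adjusted p = 0.397). Psmb8, also a subunit, had a difference of 1.04, Psme1, of the proteasome activator, 1.13, and Tap1, of the peptide transporter, 1.68. Psmb9, Psmb8, Psme1 and Tap1 were called in every alternative that tested them.

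The class I molecules themselves were slightly lower in cDC1. B2m, the light chain, was at 764, 982 and 1084 adjusted CPM in cDC1 and at 985, 1418 and 1333 in cDC2, a log2 difference of -0.39 with an SE of 0.09 (limma adjusted p = 0.0227). H2-K1 and H2-D1, the heavy chains, differed by -0.43 and -0.31. Dividing cells moved with this result. With dividing cells left out of both gates the limma adjusted p was 0.821 for B2m, 0.922 for H2-K1 and 0.769 for H2-D1, while Psmb9 stayed at a difference of 1.76 and Tap1 at 1.44. H2-Q7, higher by 0.89 with all cells, was then at 0.64 and was not called (limma adjusted p = 0.139). Without the CONV AsiDNA library no class I gene was called lower.

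MHC class II genes, which serve CD4+ T cells, were mostly lower. Of 13 tested, 8 were lower and 1 was higher in cDC1, beside 17.4% and 17.0% of all genes tested. Without dividing cells 6 were lower and 2 higher, beside 263 and 191 of 2178 genes. Cd74, the invariant chain, was at 21050, 22650 and 21250 adjusted CPM in cDC1 and at 34460, 36330 and 35890 in cDC2. Its log2 difference was -0.72 with an SE of 0.02 (limma adjusted p = 7.9e-05). H2-Aa, a class II chain, was at 9848, 9054 and 8631 against 16340, 14680 and 13800, and H2-Eb1 differed by -0.88. The 3 libraries were close to each other and far from cDC2. H2-DMb2, a peptide exchange factor, differed by -2.64, while H2-DMb1, its close relative, was the gene called higher, at 0.41. Near-identical parts of such genes could share reads, and the counting of such reads is not given in these sources.

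Among genes of uptake and cross-presentation, 5 of 14 were higher and 5 lower, beside 17.0% and 17.4% of all genes tested. Without dividing cells 6 of 15 were higher and 2 lower, beside 191 and 263 of 2178 genes. Ncf1, Sec61b and Unc93b1 were then no longer called. Wdfy4, which cDC1 need to cross-present antigen of dead cells, was at 1402, 1129 and 1075 adjusted CPM in cDC1 and at 430, 382 and 625 in cDC2 (log2 difference 1.33, SE 0.19, limma adjusted p = 0.00476). Dnase1l3, a secreted nuclease, was at 148, 130 and 121 and was listed at 0 in cDC2 of all libraries.

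Chemokines and cytokines were lower in cDC1 for 8 of 10 genes tested and higher for 1, Cxcl16. Over all genes tested, 17.4% were lower and 17.0% higher. Without dividing cells 5 of 12 genes of the list were lower, beside 263 of 2178 genes at large. These were Ccl2, Ccl3, Ccl9, Il1b and Tnf, and Ccl4, Ccl17 and Tgfb1 were no longer called. Il1b, the inflammatory cytokine, was at 395, 683 and 278 adjusted CPM in cDC1 and at 3207, 2761 and 2282 in cDC2 (log2 difference -2.66, SE 0.21, limma adjusted p = 0.000883). Tnf differed by -1.75 and Ccl3 by -2.29. Each cDC1 sum of Il1b was below each cDC2 sum. Ccl17, a chemokine that attracts T cells, differed by only -0.63, and without dividing cells its difference was 0.05 (limma adjusted p = 0.809). Ccr2, which brings precursors from the blood, was not called, at 670, 642 and 720 against 734, 673 and 580 (limma adjusted p = 0.843).

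The cell cycle list stood out from the other lists in its count, with 27 of 28 genes higher in cDC1 than in cDC2 and none lower, beside 17.0% of all genes. Mki67, the proliferation antigen, was at 643, 772 and 707 adjusted CPM in cDC1 and at 86.0, 261 and 261 in cDC2 (log2 difference 1.90, SE 0.28, limma adjusted p = 0.00522). Top2a, the topoisomerase of dividing cells, was at 938, 1074 and 951 against 112, 292 and 297. Every cDC1 sum of both genes was above every cDC2 sum.

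Cells with such genes were a large fraction of cDC1. A cell was counted as dividing if at least 2 of the 8 genes Mki67, Top2a, Birc5, Cdk1, Ccna2, Nusap1, Ube2c and Tpx2 were above 0. In CONV, 19 of 40 cDC1 were dividing, or 47.5% (31.5 to 63.9). With AsiDNA it was 49 of 104, or 47.1% (37.2 to 57.2), and after FLASH 27 of 73, or 37.0% (26.0 to 49.1). The 3 intervals overlapped. Among cDC2 the share was 2.86%, 12% and 8.25% in CONV, CONV AsiDNA and FLASH, and among mature dendritic cells 0 of 16, 1 of 30 and 0 of 16 cells were dividing. Of all cells in the libraries, 1.44%, 2.25% and 2.14% were. The median total of adjusted counts was 4329, 4302 and 4291 per cDC2, close to that of cDC1.

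FLASH had the lowest dividing share of cDC1 whatever the number of genes required. With at least 1 gene it was 57.5%, 51.0% and 41.1% and with at least 3 genes 45.0%, 46.2% and 32.9%. In cDC1 with both Xcr1 and Clec9a it was 50.0%, 50.6% and 47.3%. Without cells with Siglech or Ccr9 it was 50.0%, 48.9% and 39.7%, and with Epcam left out of the rule 45.2%, 36.8% and 29.2%. The cDC2 share was computed for at least 2 genes and the main gate only.

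**Figure D4:**
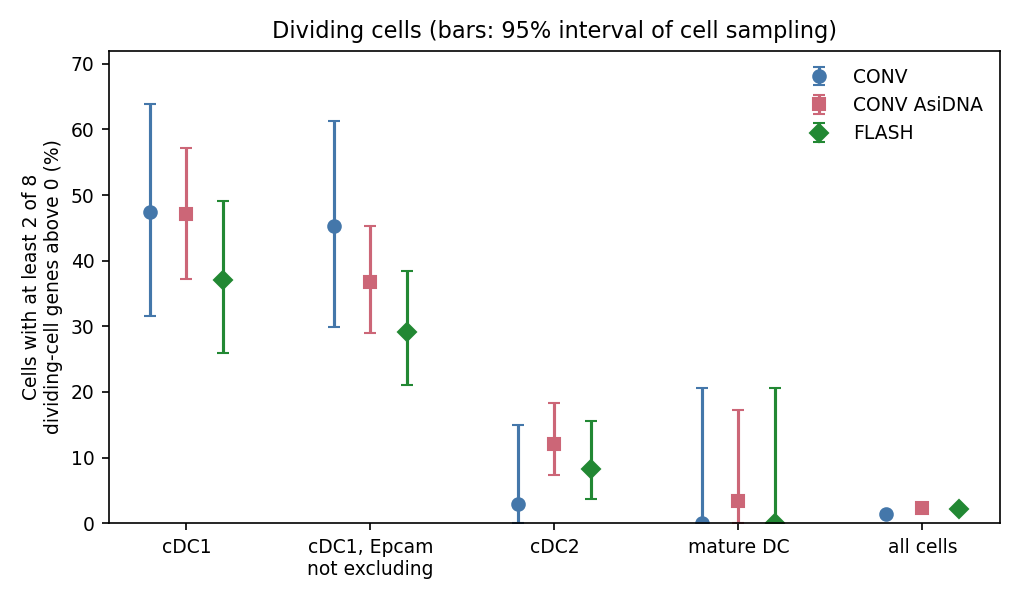
Share of cells, in percent, with at least 2 of 8 dividing-cell genes above 0, for cDC1, cDC1 with Epcam left out of the rule, cDC2, mature dendritic cells and all cells. Points are libraries and bars are exact 95% intervals of cell sampling. cDC1 lay between 37.0% and 47.5%, above cDC2, which reached 12%.

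Dividing cDC1 had the genes of their lineage at levels near those of other cDC1. They were compared with the other cDC1 of the same library, as a description, since the split was made by expression. Of 23 identity genes, none was at least 2-fold higher in dividing cells of all 3 libraries and 1, Plet1, was lower in all, and the median log2 ratio was -0.15, -0.05 and 0.33. The median over 2251 genes outside the cell cycle list was 0.09, 0.05 and 0.17. Among 29 cell cycle genes 26 were at least 2-fold higher in all libraries. They include the 8 genes that made the split, which were higher because of it. Hmgb2, a chromatin protein of dividing cells, was at 3585, 4118 and 3861 adjusted CPM in dividing and at 284, 310 and 262 in other cDC1. H2afx, the histone variant that is phosphorylated at DNA breaks and is also made in S phase, was at 751, 839 and 864 against 21.0, 29.7 and 15.7.

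At least 2-fold lower in dividing cDC1 of every library were 2 of 8 chemokines and cytokines, 3 of 7 lysosome genes and 2 of 13 class II genes. Ccl17 was at 550, 217 and 661 adjusted CPM in dividing cells and at 4016, 3109 and 2885 in the other cDC1. Il1b was at 116, 247 and 97.7 against 673, 1117 and 404. Ctss, a lysosomal protease that trims the invariant chain, was at 0, 17.0 and 52.6 against 1219, 459 and 362, and its CONV level came from 3 cells. All 3 genes were lower in the dividing cells of each library. Siglech was listed at 0 in every dividing cDC1 and was at 252, 242 and 1023 in the others. In all, 205 of the 2251 genes were at least 2-fold higher in dividing cells of every library and 62 were lower.

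Mature dendritic cells, of which 62 were found, were chosen by the genes Fscn1, Ccl22, Ccr7 and Il12b, which the cDC1 rule limited. They differed from cDC1 in other genes known to change when a dendritic cell matures. Genes that rise together with the choosing genes could differ because of this choice, so their direction is a description. limma was run on the 3 libraries as for cDC2, and mature sums rested on as few as 16 cells. Of 2177 genes, 604 were higher in cDC1 (27.7%) and 395 lower (18.1%). Without the CONV AsiDNA library 257 were higher and 222 lower. Scaling by the median ratio of genes in place of totals gave 464 higher and 451 lower. Il4i1, an enzyme that consumes amino acids needed by T cells, was listed at 0 in all cDC1 sums and was at 1449, 1639 and 2268 adjusted CPM in mature cells (limma adjusted p = 2.7e-06). Samsn1, an adaptor, was at 15.8, 21.3 and 37.1 against 2328, 2413 and 2566. Of 20 maturation genes 17 were lower in cDC1 and none higher, and 6 of 10 co-stimulation and checkpoint genes were lower, among them Cd40, Cd80, Cd83 and Cd274, while Btla and Havcr2 were higher.

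Class I genes were lower in cDC1 than in mature cells for 7 of 19 tested and higher for 2, beside 18.1% and 27.7% of all genes. B2m was at 2986, 3157 and 2778 adjusted CPM in mature cells, a log2 difference for cDC1 of -1.66 with an SE of 0.17 (limma adjusted p = 0.000219), and H2-K1 differed by -1.69. Ccr2 was at 670, 642 and 720 in cDC1 and at 43.9, 75.2 and 227 in mature cells (log2 difference 2.74, SE 0.37, limma adjusted p = 0.000691). H2-DMb1 was higher in cDC1 by 2.44. Of 24 cDC1 identity genes, 15 were higher in cDC1 and 2, Id2 and Ly75, were lower, beside 27.7% and 18.1% of all genes. Clec9a was above 0 in 3 of 16, 4 of 30 and 1 of 16 mature cells of CONV, CONV AsiDNA and FLASH. Mature cells of the cDC1 and cDC2 branches were not separated in this comparison. Among the 10 genes farthest higher in cDC1, 9 were genes of dividing cells, led by Pclaf at 538, 689 and 460 against a listed 0 in all mature sums, and the other was Siglech.

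The conditions were then compared within cDC1. Sums rested on 40, 104 and 73 cells, and 2259 genes were compared with a mean of at least 50 adjusted CPM. A gene is counted below where its ratio, after adding 10, was at least 2-fold. CONV was higher than CONV AsiDNA for 46 genes (2.04%) and lower for 107 (4.74%). CONV was higher than FLASH for 92 (4.07%) and lower for 116 (5.14%). CONV AsiDNA was higher than FLASH for 47 (2.08%) and lower for 28 (1.24%). The pairs share libraries and are not independent of each other. Beyond 2-fold of both other libraries lay 29 genes above and 65 below for CONV, 3 and 4 for CONV AsiDNA, and 20 and 25 for FLASH.

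Fkbp5, a chaperone of the glucocorticoid receptor and a gene that glucocorticoids induce, spans 28399094 to 28517527 of chromosome 17 (GRCm38, minus strand). It was at 264, 44.7 and 40.2 adjusted CPM in cDC1 of CONV, CONV AsiDNA and FLASH. It was above 0 in 29 of 40, 18 of 104 and 12 of 73 cells. The log2 ratio of CONV was 2.32 over CONV AsiDNA and 2.45 over FLASH, the latter libraries being close to each other. CONV was also highest in cDC2, with 238 against 28.0 and 89.3, so a high level in CONV was not confined to cDC1. Of all cells, 32.0%, 17.7% and 21.9% were above 0 for Fkbp5.

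Other genes above both libraries in CONV had different roles. Irs2, an adaptor of the insulin receptor, was at 158, 40.4 and 52.5 adjusted CPM in CONV, CONV AsiDNA and FLASH, and in cDC2 at 218, 87.0 and 101. Egr2, an early growth response factor, was at 200, 59.5 and 52.5 in cDC1. In cDC2 Egr2 had another order, with 344, 409 and 420. Tet2, an enzyme that oxidises methylcytosine, was at 127, 31.9 and 43.3. Tgif1, a repressor in TGF-β signalling, was at 111, 36.2 and 30.9. Tmcc3, at 163, 21.3 and 37.1, Rasgef1b, at 148, 36.2 and 40.2, and Ccdc107, at 127, 38.3 and 30.9, completed the 8 genes named by rule. The rule chose genes for which CONV lay beyond both other libraries, here and among the genes below, so that order is a description. In cDC2 CONV was also highest for Tmcc3, at 159, 85.4 and 104, and for Rasgef1b, at 370, 180 and 84.5. The same held for Tet2, at 145.5, 87.0 and 67.6, and for Ccdc107, at 46.3, 17.1 and 19.3. For Tgif1, at 172, 183 and 140 in cDC2, CONV was not highest.

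The genes below both libraries in CONV mostly had larger ratios than those above. Klf2, a transcription factor of quiescence and trafficking, spans 72319033 to 72321656 of chromosome 8 (GRCm38, plus strand). It was at 94.9, 719 and 652 adjusted CPM in CONV, CONV AsiDNA and FLASH, and above 0 in 12.5%, 58.7% and 48.0% of cDC1. In cDC2 it was at 59.5, 186 and 106. Lmna, the nuclear lamin A/C gene, was at 15.8, 255 and 269. S100a10, which binds annexin A2, was at 26.4, 419 and 269. CONV stood alone at the low end for each of these in cDC1. In cDC2 CONV was also lowest for S100a10, at 357, 811 and 727, and for Lmna, at 0, 18.6 and 43.5.

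Ctsz, a lysosomal protease, was above 0 in 10.0%, 64.4% and 60.3% of cDC1, at 36.9, 247 and 266 adjusted CPM. It was low in cDC2 of CONV too, with 112 against 360 and 418. Tnip3, an inhibitor of NF-κB signalling, was at 26.4, 268 and 250 in cDC1, whereas the cDC2 sums were even, at 2592, 2433 and 2439. The other genes of the 8 were Dynll1, a dynein light chain, at 5.27, 99.9 and 80.3, Rexo2, a nuclease of short RNAs, at 5.27, 65.9 and 105, and Tmco3, at 5.27, 91.4 and 64.9. With 40 cells in CONV, a level of 5.27 stands for 1 adjusted count. In cDC2 Dynll1 was also lowest in CONV, at 52.9, 273 and 123. Rexo2, at 46.3, 38.8 and 43.5, and Tmco3, at 6.61, 3.11 and 7.24, were not lowest in CONV there.

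**Figure D5:**
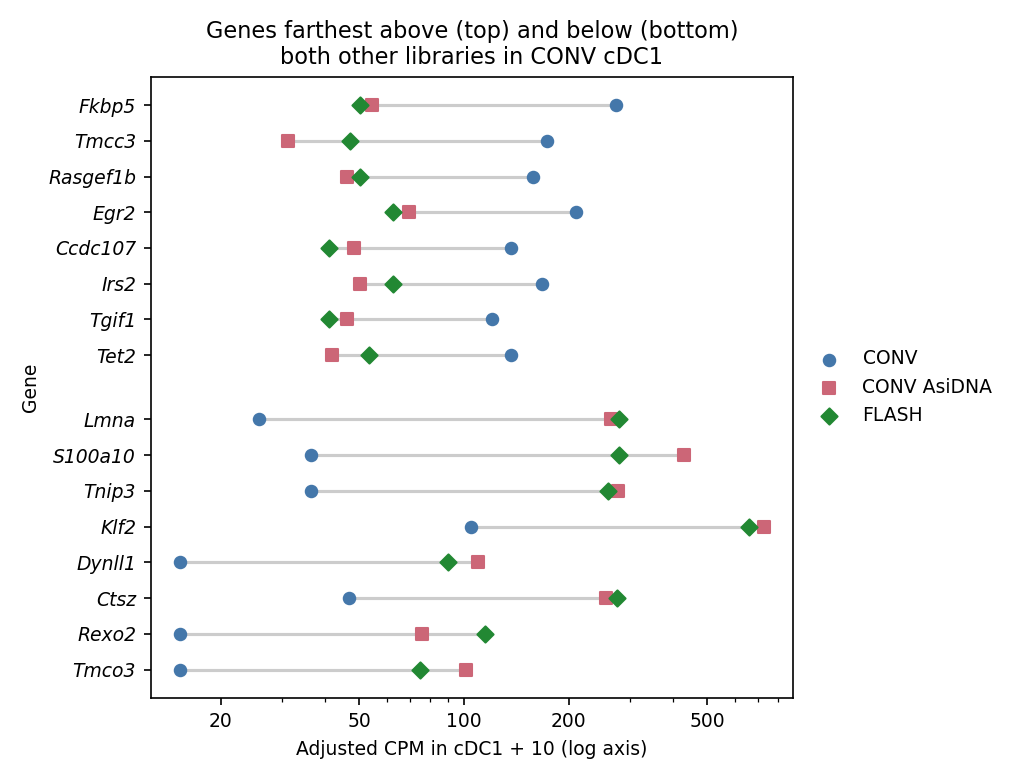
Adjusted CPM plus 10, on a log axis, in cDC1 of each library for the 8 genes named as most above and the 8 named as most below the rest in CONV. Points are libraries. The genes were chosen because CONV lay beyond both others, as for Klf2 at 719 and 652 adjusted CPM against 94.9 in CONV.

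Immediate early genes, which cells switch on within minutes of a stimulus, were listed together with other genes tied to tissue dissociation, such as Hspa8. Klf2 and Egr2, named above because CONV lay beyond both others, are on this list. The listed genes were uneven between the conditions. Of 24 compared, 9 were at least 2-fold lower in CONV than in CONV AsiDNA and 2 higher, beside 4.74% and 2.04% of all genes. The median log2 ratio was -0.64 beside -0.02 over all genes. Against FLASH 5 were lower and 3 higher, beside 5.14% and 4.07% of all genes, with a median of -0.44 beside 0.05. Junb, a subunit of the transcription factor AP-1, was at 728, 1699 and 1532 adjusted CPM in CONV, CONV AsiDNA and FLASH. Ier2 was at 89.6, 383 and 442, and Atf3, a stress-induced factor, at 295, 772 and 541. Nfkbia, the inhibitor that NF-κB induces, was at 369, 959 and 803. CONV was lowest for each of these 4 genes, but in dividing cDC1 Nfkbia was at 349, 341 and 556, with CONV not below CONV AsiDNA.

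The list did not go one way. Nr4a2, a nuclear receptor induced by stimulation, was at 638 adjusted CPM in CONV against 242 and 256, the reverse of Junb, but in dividing cDC1 it was at 381, 302 and 428. Dusp1, a phosphatase of the same response, was even at 1302, 1348 and 1109, and Fos at 2140, 2800 and 2783. CONV AsiDNA and FLASH did not differ by 2-fold for any of the 24 genes, and their median was 0.28 beside 0.07 over all genes.

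Most genes of cDC1 identity were within 2-fold between conditions, as were most genes at large. Of 23 compared, 1 was at least 2-fold higher and 2 lower in CONV than in CONV AsiDNA, beside 2.04% and 4.74% of all genes, with a median log2 ratio of 0.00. Against FLASH 0 were higher and 3 lower in CONV, beside 4.07% and 5.14%, with a median of 0.03. Tlr3, with 295, 485 and 534, and Irf8, with 1513, 2082 and 2623, were lowest in CONV, and Naaa was highest there, with 1613, 1437 and 1066. None of these 3 reached 2-fold. Cd207 and Itgax, with the values given above, were at least 2-fold lower in CONV than in both others, and Zbtb46, a transcription factor of conventional dendritic cells, was so against FLASH, at 26.4, 59.5 and 64.9. Plet1, a surface protein, was the widest of these genes and was low in CONV AsiDNA, at 36.2 against 279 in CONV and 176 in FLASH. With Epcam left out of the rule the log2 ratio of CONV over CONV AsiDNA for Plet1 was 1.97 in place of 2.65, a smaller distance than the -2.31 of Cd207.

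Antigen presentation genes were mostly within 2-fold as well. Of 17 class I genes, 1 was at least 2-fold lower in CONV than in each of the others, beside 4.74% and 5.14% of all genes. None was higher, beside 2.04% and 4.07%. The lower gene was H2-Q7, a non-classical class I gene, at 68.5, 191 and 266 adjusted CPM in CONV, CONV AsiDNA and FLASH. B2m had the same order at a smaller size. In dividing cDC1 B2m was at 296, 911 and 849 adjusted CPM. In the other cDC1 it was at 1230, 1053 and 1249, where CONV was not lowest. The class II genes H2-Aa and Cd74 were within 2-fold. Of 13 class II genes, 1 was higher and 1 lower in CONV than in either library. Over all genes 2.04% were higher and 4.74% lower than in CONV AsiDNA, and 4.07% and 5.14% than in FLASH. Ctss was the higher class II gene, at 612, 238 and 235 adjusted CPM, although it was above 0 in only 7.5% of CONV cDC1 against 33.7% and 48.0%. Ctsl, another lysosomal protease, was the lower one, at 15.8, 85.1 and 232, from 1, 4 and 10 cells. For Ctss the share and the level had opposite orders, and the CONV sum rested on few cells. In dividing cDC1 Ctss was at 0, 17.0 and 52.6, with CONV lowest. CONV AsiDNA had 2 class II genes lower than FLASH and 0 higher, beside 1.24% and 2.08% of all genes.

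Chemokine genes were highest in CONV for Ccl4 and lowest in FLASH for several. Ccl4, an inflammatory chemokine, was at 1650, 912 and 327 adjusted CPM in CONV, CONV AsiDNA and FLASH, and above 0 in 52.5%, 21.2% and 17.8% of cDC1. cDC2 had the same order, with 2684, 1101 and 657. Il1b was highest in CONV AsiDNA, at 683 against 395 and 278, and Tnf likewise, at 145 against 100 and 58.7. Of 7 genes compared, 3 were at least 2-fold higher in CONV AsiDNA than in FLASH, beside 2.08% of all genes. In CONV 1 was higher than in FLASH, beside 4.07%. Of 11 receptor genes, 1 was lower in CONV than in CONV AsiDNA, beside 4.74% of all genes. Against FLASH 2 were lower in CONV, beside 5.14%. Gpr183, an oxysterol receptor that positions dendritic cells, was lower in CONV than in both, at 158 against 404 and 352.

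The study's question concerns the p53 and p21 axis and the cell cycle. Cdkn1a, which encodes p21, was at 58.0, 155 and 127 adjusted CPM in cDC1, 5 months after treatment, in the same order. It was above 0 in 5 of 40, 22 of 104 and 8 of 73 cells, so the share of FLASH was not above that of CONV. The order also turned with the dividing split, as the log2 ratio of CONV over FLASH for Cdkn1a was 1.55 in dividing cDC1 and -1.78 in the others. With Epcam left out of the rule it was -0.82 in place of -1.01. Of 5 p53 targets that could be compared, Cdkn1a alone was at least 2-fold apart in any pair. The 29 cell cycle genes had a median log2 ratio of 0.02 between CONV and CONV AsiDNA, with none at least 2-fold apart. CONV over FLASH had a median of 0.34, with 2 genes higher in CONV, beside 4.07% of all genes. Pcna, the replication clamp, was at 369, 351 and 179, and Rrm2, a subunit of ribonucleotide reductase, at 221, 247 and 83.4. FLASH, where 37.0% of cDC1 were dividing, was lowest in both.

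Interferon response genes were mostly too low to compare, with 7 of 44 past the minimum. Of these 7, CONV had 1 higher and 0 lower than CONV AsiDNA, beside 2.04% and 4.74% of all genes. Against FLASH CONV had 1 higher and 1 lower, beside 4.07% and 5.14%. CONV AsiDNA had 0 higher and 1 lower than FLASH, beside 2.08% and 1.24%. Bst2, which tethers viruses and also marks plasmacytoid dendritic cells, was at 174, 191 and 470 adjusted CPM. Samhd1, a nuclease of nucleotides, was at 153, 40.4 and 58.7 adjusted CPM in CONV, CONV AsiDNA and FLASH. Of 79 ribosomal protein genes none was 2-fold apart in any pair, with medians of 0.24, 0.05 and -0.19. The small differences went mostly one way for CONV AsiDNA. CONV was higher than CONV AsiDNA for 74 of them and higher than FLASH for 53, and CONV AsiDNA was higher than FLASH for 1. Ribosomal protein genes made up 27.15%, 22.8% and 25.9% of the adjusted counts.

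Few genes set CONV AsiDNA apart from both others. Traf1, an adaptor of TNF receptors, was at 338 adjusted CPM against 105 in CONV and 170 in FLASH. Tubb6, a tubulin, was at 217 against 94.9 and 102, and was above 0 in 58.7% of cDC1 against 37.5% and 39.7%. Ppp1cc, a phosphatase subunit, was at 89.3 against 36.9 and 37.1, and Ehbp1l1 at 106 against 47.5 and 55.6. Of these, Traf1 and Ehbp1l1 were less than 2-fold above FLASH. Fyb, an adaptor, was lower in CONV AsiDNA, at 25.5 against 73.8 and 161, and Lpar6, a lysophosphatidic acid receptor, at 21.3 against 94.9 and 52.5, just under 2-fold below FLASH.

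In FLASH, Cd36, a scavenger receptor for lipids, was at 6.18 adjusted CPM against 100 in CONV and 106 in CONV AsiDNA. It was above 0 in 1 of 73 cells, against 16 of 40 and 32 of 104. Tubb4b, a tubulin, had the same pattern, at 24.7 against 206 and 155, with 1 cell against 13 and 33. Cd9, a tetraspanin, was at 34.0 against 137 and 138, and the noncoding RNA Kcnq1ot1 at 12.4 against 58.0 and 106. Cd9 was above 0 in 8 of 73 cells in FLASH against 2 of 40 and 24 of 104, so its CONV level rested on 2 cells. For Cd36 and Tubb4b the levels and the shares of cells had the same pattern.

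Of the 20 genes above both others in FLASH, some came from few cells. Siglech was at 602 adjusted CPM against 127 in CONV and 121 in CONV AsiDNA, from 9, 2 and 6 cells, and the summed level of plasmacytoid genes was 2199 against 411 and 540. Cox6a2, a cytochrome oxidase subunit, was at 201 against 21.1 and 42.5, and Lair1, an inhibitory receptor, at 170 against 15.8 and 48.9. In the order of the libraries Cox6a2 was above 0 in 1, 4 and 7 cDC1 and Lair1 in 2, 10 and 13. Without cells with Siglech or Ccr9, the count of genes lower in CONV AsiDNA than in FLASH was 14 in place of 28. The mitochondrial genes mt-Co2, at 1770 against 47.5 and 57.4, and mt-Co1, at 726 against 36.9 and 31.9, went with the whole library, of whose cells 70.4% were above 0 for mt-Co2 in FLASH, 36.8% in CONV and 28.1% in CONV AsiDNA. Low mt-Nd1, at 25.5 against 369 and 275, and mt-Atp8, at 104 against 290 and 263, were among the genes of CONV AsiDNA.

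Gm42418, a locus that overlaps ribosomal RNA, was at 2810, 7795 and 454 adjusted CPM in CONV, CONV AsiDNA and FLASH, from 21, 62 and 1 cells. Of all cells, 93.0%, 93.9% and 5.15% were above 0 for it, so FLASH differed from the others in the whole library. Genes of other cells were low in cDC1, but not always confined to single cells. NK cell genes summed to 121, 247 and 182, of which Klrd1 gave 121, 234 and 182, from 6, 51 and 33 cells. Cd68, a gene of macrophages, was at 31.6, 55.3 and 164, from 4, 18 and 35 cells. Epithelial genes summed to 0, 2.13 and 1032 in CONV, CONV AsiDNA and FLASH, where Scgb1a1 came from 1 cell. B cell genes summed to 0, 4.25 and 105 and T cell genes to 0, 31.9 and 133, while genes of fibroblasts and of mast cells were listed at 0 in all 3 libraries. Alveolar macrophage genes summed to 427, 106 and 176, but that list shares Plet1 with the cDC1 list, which alone gave 279, 36.2 and 176. Monocyte genes summed to 211, 247 and 596, of which Plac8 gave 337 and Ly6c2 gave 244 in FLASH. In FLASH Plac8, Ly6c2 and Siglech were each above 0 in 19.6% of non-dividing cDC1. Whether these were the same cells was not tested. The part of genes of other cells in the differences between conditions was not tested.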

How the data were processed

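Per the submitters' processing notes, reads were processed with Cell Ranger 6.0.0 and mm10. The values that the authors deposited, for 22954 genes in each cell, are on a natural log scale, as ln(1 + a whole number). How depth and background were adjusted is not given in these sources. The plan had allowed for raw counts. The values were turned back to whole numbers (adjusted counts), and no count model was used. A further 4 tables were set aside, which hold 12 per-sample columns. Some of them hold the authors' own fold changes and p-values.

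Values were added over the cells of a gate in a library and divided by their total. Log2 ratios were taken after adding 10 to the adjusted CPM, which understates the change of low genes. Genes entered at a mean of 50, and genes listed at 0 in all cDC1 of a library (11 of 2270) were left out between conditions. Contrasts between cell types used limma 3.58.1 (trend, library as a block, two-sided, Benjamini-Hochberg over all genes tested, 0.05) in R 4.3.3. Pairing came from the animal, as both sums of a pair are from 1 mouse. p-values rest on 3 mice of different treatment. Shares carry exact Clopper-Pearson 95% intervals. No doublet caller was run. The rule turned away cells with any of 7 genes of other lineages, and cells with other such genes could stay. Clusters were made with scanpy 1.11.5 and leidenalg 0.10.2, and other steps with Python 3.11.15, numpy 2.4.6, pandas 2.3.3, scipy 1.17.1 and matplotlib 3.10.9. The fits were tested on simulated data.

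Named genes were members of the lists described, the 8 above and 8 below both other libraries in CONV, the 5 in each direction for CONV AsiDNA and FLASH, ranked by the smaller log2 ratio, and the 10 called genes farthest in each direction against cDC2 and mature dendritic cells. The cells, lists and rules were chosen with earlier results of these data known, so no test was run on a list. Alternatives changed the gate, the prior, the minimum, the scaling, the block and the libraries used. Gene positions are from GENCODE vM21 for GRCm38.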

Additional observations from a re-analysis of the deposited data

How the results depend on the processing

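No gene named by its rank changed direction under the alternatives run. Of the list genes described as at least 2-fold apart, 3 turned in dividing cDC1 alone, with log2 ratios of 1.55 for Cdkn1a (CONV over FLASH), 0.03 for Nfkbia (CONV over CONV AsiDNA) and -0.17 for Nr4a2 (CONV over FLASH). Of 714 values of ranked genes between libraries, 28 dropped below 2-fold and 5 passed it, and 366 of 366 values of genes named against cDC2 or mature dendritic cells kept their call. The cDC1 share was 0.879%, 2.46% and 2.11% (CONV, CONV AsiDNA, FLASH) with no exclusion of other lineages, and 1.40%, 3.09% and 2.75% as clusters at resolution 1, which counted all 279 cells of the cluster led by cell cycle genes (91 cDC1, 27 cDC2) and so are not shares of cDC1 alone. It was 2.52% and 2.06% in CONV AsiDNA and FLASH at resolution 2, 1.22% and 0.878% with both markers, and 2.06% and 1.80% without Epcam, where 36.8% of CONV AsiDNA cDC1 were dividing. Thinning each cell to 1000 adjusted counts lowered the 12 shares above 0 of Xcr1, Clec9a, Naaa and Flt3, with Naaa at 75.0%, 73.1% and 53.4%, and put Tlr3 at 22.5%, 43.3% and 34.3%, and over all alternatives 61 of 609 list medians moved.

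Counts past 2-fold, higher and lower, depended on the settings. CONV over CONV AsiDNA gave 18 and 39 with 50 added, 133 and 263 at a minimum of 20, 7 and 28 at 200, 101 and 167 without dividing cells, and 76 higher in dividing cells alone. CONV over FLASH gave 28 and 59, 261 and 257, 12 and 32, 180 and 194, and 148 higher. CONV AsiDNA over FLASH gave 72 higher with 1 added, 9 higher and 21 lower with 50 added, so that the balance of 47 and 28 turned, 152 and 96 at 20, 5 and 10 at 200, 86 and 60 without dividing cells, 104 and 51 in dividing cells alone, 21 higher without Epcam, 14 lower with both markers and 14 lower without cells with Siglech or Ccr9. For this pair the median of the immediate early and dissociation list was 0.53 without dividing cells and -0.0087 in them. The cause was not tested, beyond the smaller numbers of genes or cells that some settings leave. Alternatives on Epcam, on Siglech or Ccr9, on dividing cells alone and on dividing cells in the cDC2 contrast were chosen after seeing the data.

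Against cDC2, limma called 150 higher and 159 lower at a minimum of 200, and 191 and 263 without dividing cells. Leaving out 1 library in turn gave 198 to 450 higher and 236 to 464 lower, and against mature dendritic cells 257 to 629 and 222 to 432, the lowest each time without CONV AsiDNA. With no replicate block, so without the pairing by mouse, limma called 344 and 331 against cDC2 and 529 and 379 against mature dendritic cells. Depth limits low genes most, as 1 adjusted count in CONV cDC1 was 5.27 adjusted CPM.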

Other observations

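Cells that only Epcam kept outside the cDC1 rule, 40 in CONV AsiDNA and 40 in FLASH, had the genes of cDC1, some at higher levels than in the cDC1 described. Naaa was above 0 in 100% of them in CONV AsiDNA and in 97.5% in FLASH, against 93.3% and 83.6% of cDC1. The rule had required Xcr1 or Clec9a of these cells as well, so the shares of both genes are a description. Xcr1 was above 0 in 95% and 97.5% of the cells turned away, against 89.4% and 84.9% of cDC1. Clec9a was above 0 in 87.5% and 75.0%, against 92.3% and 90.4%. Cd207 was above 0 in 75.0% and 70% of them, against 44.2% and 49.3% of cDC1, and its level was 806 and 628 adjusted CPM against 302 and 454. Plet1 was at 219 and 383 adjusted CPM against 36.2 and 176. Beside non-dividing cDC1 the log2 ratio was smaller for Plet1, at 1.48 and 0.42 in place of 2.31 and 1.08. It was also smaller for Cd207, at 1.06 and 0.17 in place of 1.39 and 0.46. Other differences were larger, as Naaa was above 0 in 87.3% and 73.9% of non-dividing cDC1 and Xcr1 in 85.5% and 76.1%. The log2 ratio of Siglech was then -3.21 and -5.61 in place of -2.27 and -4.86. Itgae was above 0 in 97.5% of the cells turned away by Epcam in both libraries, against 91.4% and 83.6% of cDC1. Ccl4, in contrast, was at 133 adjusted CPM and at a listed 0, against 912 and 327. Siglech was at 17.3 and 11.1 against 121 and 602. Dividing cells were 4 of 40 and 6 of 40, below the 47.1% and 37.0% of cDC1. A cluster of 198 cells led by Cd207 held 107 of the cDC1 and 69 of the cells turned away by Epcam. These cells were chosen for a description after the data were seen, and no test was run.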
